A study of Rattus norvegicus with 48 samples.

Results

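Nintedanib and sorafenib are small-molecule inhibitors that each block several kinases, and this account sets them against each other in slices of cholestatic rat liver. The comparison takes the 10 libraries labelled BDL_Nint and the 10 labelled BDL_Sora, chosen by sample title, which are 20 of the 48 libraries in the series. The labels shorten the compounds to Nint and Sora, read here as nintedanib and sorafenib. Both groups were precision-cut slices, thin living sections of liver kept in culture, from rats with a ligated bile duct (BDL), and total RNA was sequenced. The slices of BDL_SB525334 (9 libraries) came from ligated rats and were given SB525334, an inhibitor of the type I TGF-beta receptor kinase. BDL_veh (10 libraries) were slices of ligated rats given vehicle, and Sham_veh (9 libraries) were slices of sham-operated rats given vehicle. Every group apart from Sham_veh therefore carried the ligation, and the difference between nintedanib and sorafenib was measured on that background alone.

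Nintedanib blocks the receptors for vascular endothelial, platelet-derived and fibroblast growth factors. Sorafenib blocks RAF kinases, which pass growth factor signals to the ERK cascade, together with receptors for vascular endothelial and platelet-derived growth factors. They have receptor targets in common, and differ in the fibroblast growth factor receptors and in RAF. In a liver whose bile duct is ligated, bile backs up, bile ducts proliferate and scar tissue is laid down by activated stellate cells and portal fibroblasts, cells that respond to platelet-derived growth factor. The labels give no dose, time in culture, strain or age for the slices, so whether the compounds were set side by side at matched exposure is not known. They also name no animal, so several slices may come from 1 rat. All p-values and intervals are therefore set by the scatter among libraries, part or all of which may be technical.

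The genes are known here by rat Ensembl identifier alone. None of the 32883 identifiers in the count table could be paired with a symbol (0 matched), so the genes are described below by level, by direction and by what ligation did to them, and the labelled tissue was not checked against marker genes. A slice is a mixture of cells, and fewer cells of a type and less RNA per cell cannot be told apart in its total RNA.

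The nintedanib libraries held 12249470 to 20392041 expected counts, with a median of 13629248, and the sorafenib libraries 12705817 to 29596987, with a median of 14632850. A floor of 3 counts corresponded to 0.0956 to 0.221 CPM, the count scaled to a library total that is the same for all after TMM factors, over these 20 libraries, and it covers counting error only. Every pair of libraries within a group differed by more than sampling noise, with a chi-square of at least 6.24 per degree of freedom over 90 pairs. One nintedanib library, replicate 9, stood apart in 2 very abundant RNAs that the authors' table of protein-coding genes leaves out. The first had 3313 CPM in that library and 19010 to 22130 CPM in the other 9 nintedanib libraries, while the second had 31440 CPM in that library and 13410 to 15760 CPM in the others. The 2 RNAs summed to 34760 CPM in replicate 9, inside the range of 32750 to 37300 CPM in the other 9. Without that library 269 genes differed between the compounds, 156 higher and 113 lower, against 343 genes with it.

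Differences between the 2 compounds were mostly small. Of 14775 genes tested, 343 (2.32%) differed at an adjusted p under 0.05 in edgeR's quasi-likelihood test with Benjamini-Hochberg adjustment, which was fitted over all 48 libraries. Of these, 203 (1.37%) were higher and 140 (0.948%) were lower with nintedanib than with sorafenib. Among the higher genes 114 differed by less than 1.5-fold, 64 by 1.5 to 2-fold and 25 (0.169% of genes tested) by 2-fold or more, with none at 4-fold or more and a median log2 fold change of 0.55. Among the lower genes 91 differed by less than 1.5-fold, 34 by 1.5 to 2-fold and 15 (0.102%) by 2-fold or more, of which 3 reached 4-fold, and the median log2 fold change was -0.41. When the test asked for a change beyond 1.5-fold, 0 genes were higher and 2 were lower. The unadjusted p was under 0.05 for 2316 genes.

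**Figure D1:**
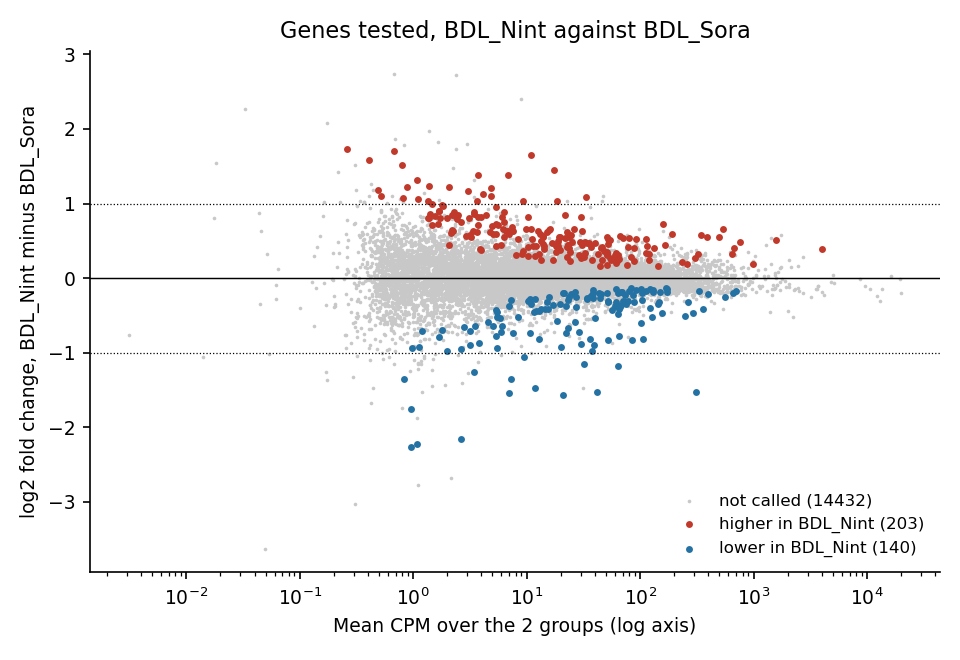
Each point is 1 of the 14775 genes tested, with its mean level over the 2 groups in CPM on a log axis and its log2 fold change, BDL_Nint minus BDL_Sora, on the other axis. The 203 genes called higher and 140 called lower with nintedanib are coloured, and the dotted lines mark 2-fold, which 25 and 15 of them reached.

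For most genes the libraries, taken as independent, also bounded how far apart the compounds could be. The intervals rest on the scatter among libraries, so if several slices came from 1 rat they may not hold for other rats. The 95% interval of the difference lay within 2-fold in both directions for 13665 genes (92.5%) and within 1.5-fold for 11259 genes (76.2%). Of the 14432 genes that were not called, 13428 had an interval within 2-fold and 1004 had one reaching past 2-fold. For those 1004 the libraries did not bound the difference within 2-fold, and the missed threshold does not show that the compounds acted alike on them. No gene stood at 1 CPM or more in every library of one compound and under 1 CPM in every library of the other.

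Calls came from all levels of expression. Between 1 and 10 CPM, 75 of 4128 genes were higher with nintedanib (1.82%) and 31 were lower (0.751%). Between 10 and 100 CPM, 96 of 7837 were higher (1.22%) and 77 lower (0.983%). Between 100 and 1000 CPM the order turned, with 22 of 1609 higher (1.37%) and 28 lower (1.74%). Under 1 CPM the median half-width of the interval was 0.62 on the log2 scale, against 0.16 between 10 and 100 CPM, and 8 of 1129 genes were higher and 4 lower.

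The libraries of the groups seldom separated completely for a single gene. In 45 genes (0.305% of those tested) every nintedanib library lay above every sorafenib library, and 27 of them were called. In 13 genes (0.088%) every nintedanib library lay below, and 5 of them were called. Taken over all genes, the first principal component of the 20 libraries held 28.9% of the variance and did not separate the compounds, running from -23.3 to 29.8 in nintedanib libraries and from -35.9 to 49.2 in sorafenib libraries. The second component held 11.5% and did separate them. Its scores were 2.18 to 23.5 with nintedanib, all positive, and -24.2 to -1.41 with sorafenib, all negative (difference 27.2, adjusted p = 0.000775 in a two-sided permutation test with 100000 draws, adjusted over 31 library measures).

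**Figure D2:**
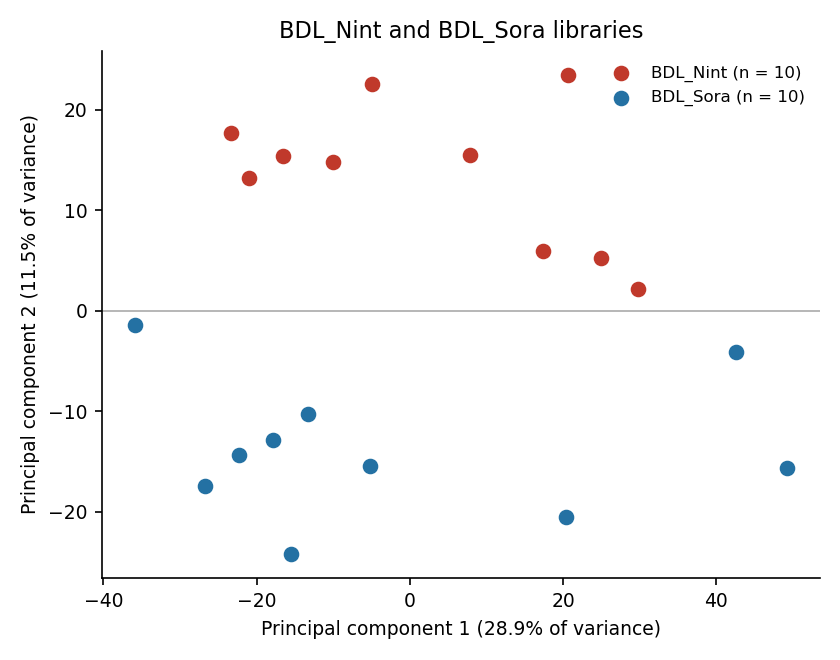
The 10 BDL_Nint and 10 BDL_Sora libraries are plotted by their scores on the first (28.9% of variance) and second (11.5%) principal components of log2 CPM. Along the vertical axis all nintedanib libraries are above 0 and all sorafenib libraries below it, while along the horizontal axis the groups overlap.

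How many genes were called depended on the fit and on single libraries. A fit to the 20 libraries alone called 1605 genes, DESeq2 598 and limma-voom with sample weights 3729, and of these 41, 51 and 140 differed by 2-fold or more, against 343 and 40 in the edgeR fit over all libraries. The library names carry a letter and a number, read here as a plate row and column although no label says so, and a fit with that number as a factor called 161 genes. Without sorafenib replicate 6, the most deeply sequenced, 166 genes were called. The count was 191 without sorafenib replicate 5, 195 without nintedanib replicate 7, 212 without nintedanib replicate 1 and 228 without sorafenib replicate 8. Without sorafenib replicate 3 it was 567. Of the 343 genes, 148 were called without each of the 20 libraries in turn, and 75 of those were also called in all 13 fits that left out no nintedanib or sorafenib library. These 75 were 43 higher and 32 lower with nintedanib, and 12 of them differed by 2-fold or more. A gene absent from a fit was counted as not called in it. Of the 343 genes, the filter at 5 CPM kept 291, the fit to the 20 libraries alone 337 and the authors' log2 CPM 325. Genes at low levels or outside the coding table could therefore miss the 75 without losing a call. All 343 kept their direction in every fit that included them.

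Each compound was next set beside the vehicle. The 2 comparisons use the same 10 vehicle libraries and share their drug libraries with the comparison above, so their values are given side by side only. Against vehicle, nintedanib changed 3587 genes (24.3%), with 1971 raised (13.3%) and 1616 lowered (10.9%), of which 468 (3.17%) and 331 (2.24%) moved by 2-fold or more. Sorafenib changed 4323 genes (29.3%), with 2406 raised (16.3%) and 1917 lowered (13%), of which 492 (3.33%) and 372 (2.52%) moved by 2-fold or more. The balance of raised and lowered genes moved with the scaling of the libraries. The fit used TMM factors, which correct library totals for the part taken by a few genes. When scaled by total counts, without those factors, nintedanib raised 1626 and lowered 1914, and sorafenib raised 1598 and lowered 2596. The sorafenib split also turned with RLE factors, at 1891 raised and 2333 lowered, as did the nintedanib split, at 1725 raised and 1922 lowered.

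Over all genes tested, nintedanib raised 13.3% and lowered 10.9% against vehicle, and sorafenib raised 16.3% and lowered 13%. The 203 genes higher with nintedanib had a median log2 fold change of 0.11 for nintedanib against vehicle. Of them 62 (30.5%) were raised and 34 (16.7%) lowered. For sorafenib against vehicle the same genes had a median of -0.35, and 18 (8.87%) were raised and 115 (56.7%) lowered. The 140 genes lower with nintedanib had a median of -0.14 for nintedanib against vehicle, with 8 (5.71%) raised and 55 (39.3%) lowered. For sorafenib against vehicle they had a median of 0.18, with 64 (45.7%) raised and 12 (8.57%) lowered. Among the 25 higher genes at 2-fold or more, nintedanib raised 7 (28%) and lowered 5 (20%), and sorafenib raised 2 (8%) and lowered 16 (64%). Among the 15 lower genes at 2-fold or more, nintedanib raised 0 and lowered 8 (53.3%), and sorafenib raised 8 (53.3%) and lowered 3 (20%).

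The effect of ligation itself, BDL_veh against Sham_veh, was measured in 19 libraries outside the 2 compound groups. They enter the comparison of the compounds only through the shared gene filter, scaling and estimate of the spread. Ligation raised 40% and lowered 42.2% of all genes tested (82.2% in all). Of the 203 genes higher with nintedanib, ligation had raised 160 (78.8%) and lowered 23 (11.3%). Of the 140 genes lower with nintedanib, it had raised 60 (42.9%) and lowered 70 (50%), against 42.2% of all genes. When libraries were scaled by total counts alone, ligation had lowered 28.9% of the lower genes and 27.3% of all genes. Among the genes that differed by 2-fold or more, ligation had raised 23 of the 25 higher ones (92%) and 13 of the 15 lower ones (86.7%). None of those 15 had been lowered (0%), so the 70 lower genes that ligation had lowered all differed by less than 2-fold.

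Genes with a stronger rise after ligation were more often higher with nintedanib than with sorafenib. Among the 961 genes that ligation raised 16-fold or more, 7.6% were higher with nintedanib and 1.14% lower. Among 1564 genes raised 4 to 16-fold, 2.56% were higher and 1.28% lower. Among 1273 genes raised 2 to 4-fold, 2.04% were higher and 0.943% lower, and among 2113 genes raised by less than 2-fold, 0.994% were higher and 0.805% lower. Of the 4338 genes lowered by less than 2-fold, 0.254% were higher and 1.13% lower, and of the 1456 genes lowered 2 to 4-fold, 0.549% were higher and 1.03% lower. Of the 374 genes lowered 4 to 16-fold, 0.535% were higher and 1.6% lower. The 67 genes lowered 16-fold or more, with a median level of 1.11 CPM, were the exception, with 2 higher and 0 lower.

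**Figure D3:**
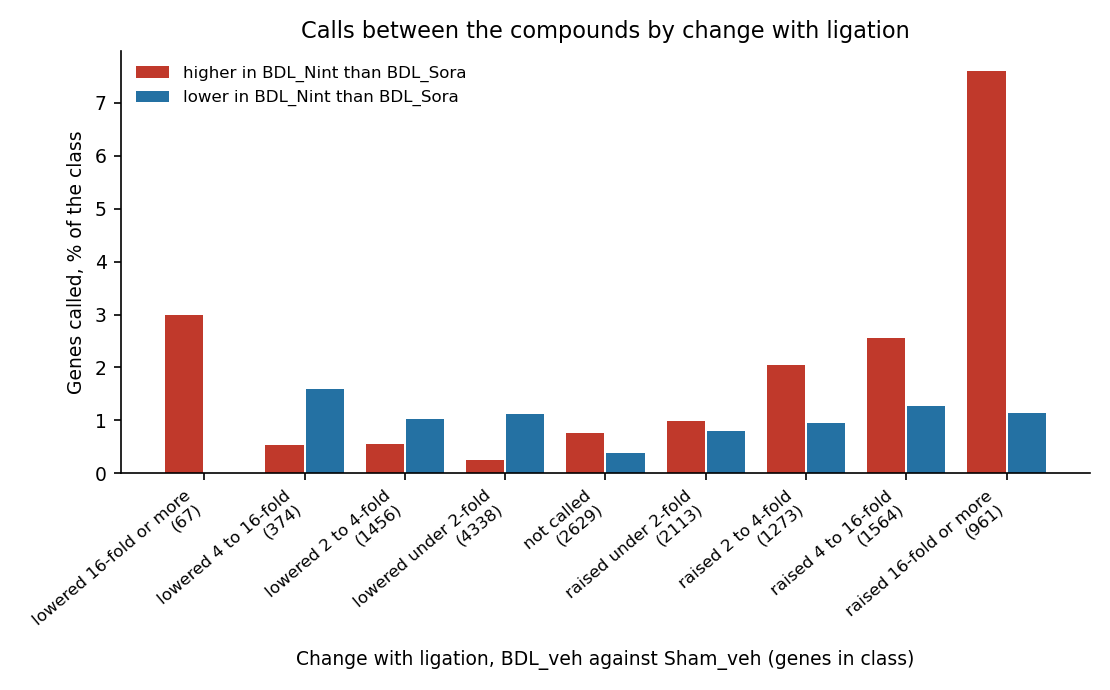
Bars give the percent of genes called higher (red) or lower (blue) with nintedanib than with sorafenib, in 9 classes set by the change in BDL_veh against Sham_veh, with the number of genes in brackets. The red bars are tallest in the class raised 16-fold or more (7.6%), and the blue bars stay between 0 and 1.6%.

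The ligation classes and the comparisons with vehicle use the same vehicle libraries, so the medians against vehicle are given side by side only. In the class raised 16-fold or more the median log2 fold change was 0.17 for nintedanib against sorafenib, -0.16 for nintedanib against vehicle and -0.32 for sorafenib against vehicle. In the class lowered 4 to 16-fold it was -0.09 for nintedanib against sorafenib, 0.47 for nintedanib against vehicle and 0.59 for sorafenib against vehicle. In the class lowered 16-fold or more it was 0.001 for nintedanib against sorafenib, 0.81 for nintedanib against vehicle and 0.92 for sorafenib against vehicle. Over all 14775 genes the change between the compounds and the change with ligation had a Pearson correlation of 0.219 and a Spearman correlation of 0.258, which describes genes and not replicates. Within bands of level the shares were as follows. Between 1 and 10 CPM, 3.18% of the 2104 genes raised by ligation and 0.341% of the 1172 lowered were higher with nintedanib, and between 10 and 100 CPM the shares were 2.65% of 2756 and 0.287% of 3827. Between 100 and 1000 CPM they were 2.8% of 500 and 0.549% of 911, and there the raised genes were as often lower with nintedanib (2.8%) as higher. At 1000 CPM or more the order was the opposite, with 0 of 16 raised genes and 2 of 46 lowered genes (4.35%) higher with nintedanib. The share raised by ligation among the genes higher with nintedanib was 84.1% when libraries were scaled by total counts alone, where ligation raised 53.2% of all genes. That scaling moved the median change with ligation over all genes to 0.30 on the log2 scale, against -0.04 with TMM factors.

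SB525334 against vehicle likewise shares no library with the comparison of nintedanib and sorafenib. SB525334 raised 38.2% and lowered 34.8% of all genes tested (73% in all). Of the 203 genes higher with nintedanib it raised 44 (21.7%) and lowered 111 (54.7%). Of the 140 genes lower with nintedanib it raised 60 (42.9%) and lowered 43 (30.7%). Of the 25 higher genes at 2-fold or more it lowered 17 (68%), with a median log2 fold change of -1.78, and of the 15 lower genes it lowered 7 and raised 4. SB525334 and ligation share the vehicle libraries, so these shares and those for ligation are not separate evidence of each other.

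The 2 largest increases and the 2 largest decreases among called genes at 1 CPM or more are described one by one; another decrease, of 4-fold or more, was larger than both increases. Of the 4 genes all but ENSRNOG00000008943 had low levels. Its level in the nintedanib libraries was 6.05 CPM at the lowest, 16 at the median and 25.7 at the highest, against 1.51, 4.46 and 11.4 CPM with sorafenib. It stood at 3.88 to 10.7 CPM with SB525334 and at 10.1 to 89.8 CPM, with a median of 24.3, in vehicle slices, against 0 to 0.272 CPM in sham slices. Of the 10 nintedanib libraries 9 lay above every sorafenib library and all 10 lay above the sorafenib median. The log2 fold change was 1.65 (SE 0.337, adjusted p = 0.00453 in edgeR's quasi-likelihood test). The gene was below vehicle with both compounds, by a log2 fold change of -1.03 with nintedanib (edgeR adjusted p = 0.0132) and -2.68 with sorafenib (edgeR adjusted p = 3.73e-08). Its call held in all 32 alternative fits, with log2 fold changes of 1.49 to 1.91. The test for a change beyond 1.5-fold is not counted among these fits, here or below, and it called 0 genes higher.

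ENSRNOG00000053301 showed the opposite order. It had 0.0632, 0.337 and 0.756 CPM at the lowest, median and highest nintedanib library, against 0.269, 1.92 and 3.42 CPM with sorafenib. Of the 10 sorafenib libraries 8 lay above every nintedanib library. The log2 fold change was -2.22 (SE 0.338, edgeR adjusted p = 0.000149), and the call held in all 31 alternative fits. Vehicle slices had 0.148 to 0.542 CPM, and the log2 fold change against them was 0.37 with nintedanib (edgeR adjusted p = 0.56) and 2.58 with sorafenib (edgeR adjusted p = 8.78e-08). SB525334 slices had 0.683 to 2.23 CPM, and sham slices 0 to 0.0773 CPM.

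ENSRNOG00000022669 also was lower with nintedanib. It had 0, 0.308 and 0.686 CPM at the lowest, median and highest nintedanib library, against 0.337, 1.62 and 3.23 CPM with sorafenib. Of the 10 sorafenib libraries 8 lay above every nintedanib library. The log2 fold change was -2.26 (SE 0.425, edgeR adjusted p = 0.00156). The call was lost in 1 of 30 alternative fits, by limma on the authors' log2 CPM, where the log2 fold change was -2.50 and the adjusted p 0.0601. Vehicle slices had 0 to 0.578 CPM and SB525334 slices 0 to 1.15 CPM, and in sham slices 8 of 9 libraries had no count. The nintedanib group held 51 counts of this gene in all and the sorafenib group 291, so the nintedanib level rests on few reads.

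The fourth gene, ENSRNOG00000006144, had the largest increase among called genes at 1 CPM or more and the least firm call. It had 0.249, 0.85 and 3.08 CPM at the lowest, median and highest nintedanib library, against 0, 0.371 and 0.696 CPM with sorafenib, and 6 of 10 nintedanib libraries lay above every sorafenib library. The log2 fold change was 1.70 (SE 0.481, edgeR adjusted p = 0.0476), and its interval ran from 0.73 to 2.67. The highest value came from nintedanib replicate 7, without which the edgeR adjusted p was 0.149. Leaving out nintedanib replicates 1, 2, 4, 6, 8 or 10 or sorafenib replicates 1, 2, 6, 7, 8, 9 or 10 also ended the call, and it held in 11 of 29 alternative fits. Against vehicle its log2 fold change was 0.43 with nintedanib (edgeR adjusted p = 0.536) and -1.27 with sorafenib (edgeR adjusted p = 0.0448). None of the 9 sham libraries had a count.

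**Figure D4:**
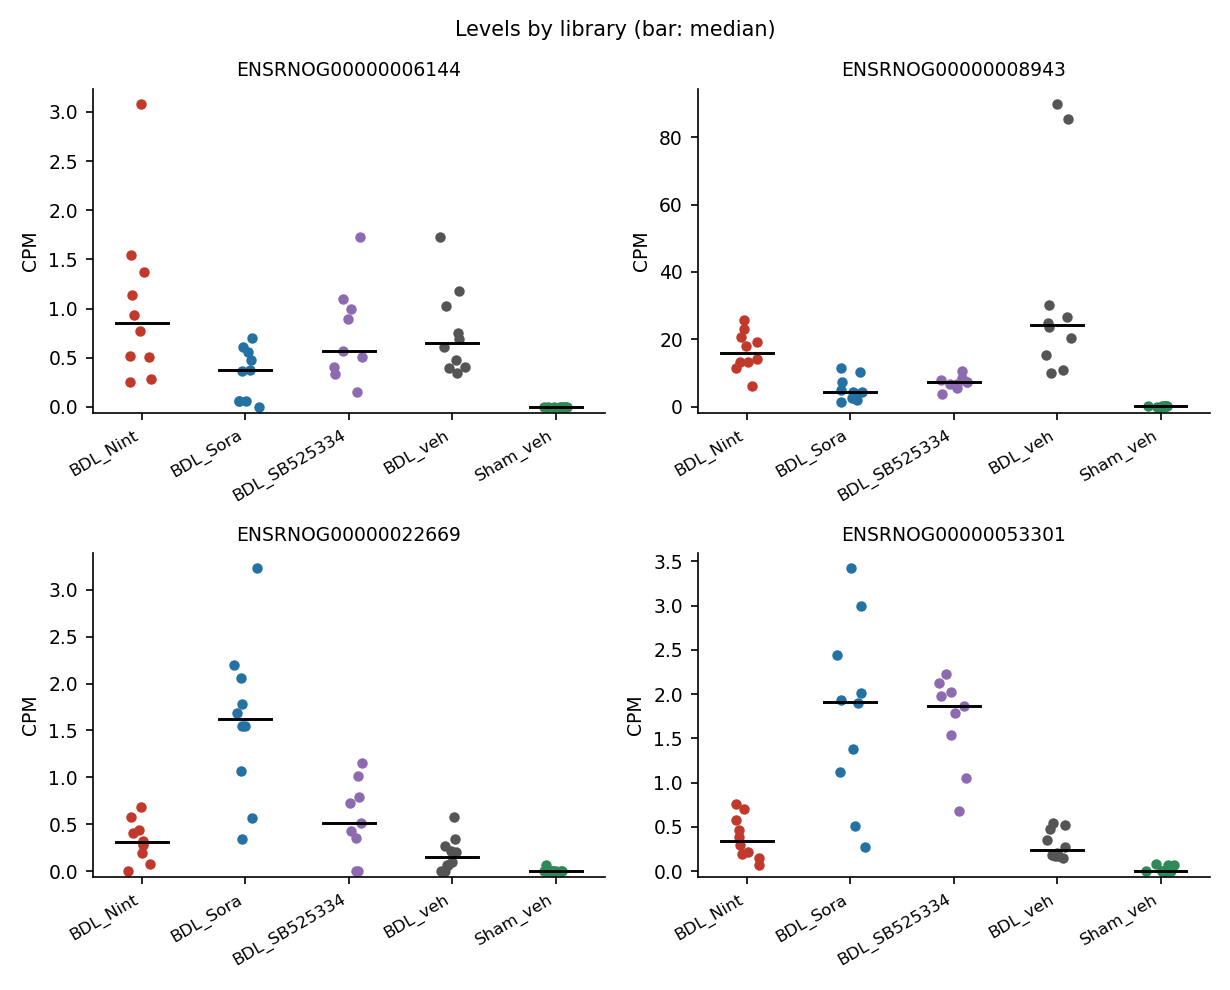
Each point is 1 library and each bar the group median, in CPM, for the 2 identifiers with the largest increase and the 2 with the largest decrease among called genes at 1 CPM or more. For ENSRNOG00000008943 the nintedanib libraries sit between 6.05 and 25.7 CPM and the sorafenib libraries between 1.51 and 11.4 CPM, and for ENSRNOG00000053301 and ENSRNOG00000022669 most sorafenib libraries sit above all nintedanib libraries.

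Genes outside the authors' protein-coding table, 955 of those tested, held 14 that were higher with nintedanib (1.47%) and 4 that were lower (0.419%). The shares were 189 (1.37%) and 136 (0.984%) of the 13820 tested genes inside it. The title of that table limits it to expressed genes, so coding genes at low levels may lie outside it. Among the 15 most abundant genes outside the table, each at a mean of 442.6 CPM or more, 2 were called and both were higher with nintedanib. The sixth in order of abundance had 4169 to 5220 CPM in nintedanib libraries, median 4541, against 3108 to 3829 CPM in sorafenib libraries, median 3486. The 2 groups did not overlap, and the log2 fold change was 0.39 (SE 0.088, edgeR adjusted p = 0.00868). The ninth had 1619 to 2238 CPM with nintedanib, median 1859, and 1113 to 1539 CPM with sorafenib, median 1252, again without overlap (log2 fold change 0.51, SE 0.102, edgeR adjusted p = 0.0031). Both calls held in all 31 alternative fits, but not in the test for a change beyond 1.5-fold, which called 0 genes higher. The vehicle means of these 2 RNAs, 4762 and 1810 CPM, lay near the nintedanib means of 4575 and 1848 CPM, and the sham means were 10580 and 4082 CPM.

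The kinds of RNA in the libraries differed too. From the 172 measures in the authors' quality table, which does not state the denominators of its shares, 22 were picked for testing. The others were not tested one by one. Several of the 22 overlap or are parts of the same total, so they are not separate measures. Of these 22, 13 differed between the compounds at an adjusted p under 0.05 (two-sided permutation test of the means, 100000 draws), which is not a rate for the whole table. Of 9 measures computed from the counts, adjusted in the same family of 31, the second principal component alone did. The share of reads in lincRNA, long intergenic RNA, was 0.55 to 0.66% with nintedanib, median 0.6%, and 0.46 to 0.54% with sorafenib, median 0.52%, and these 2 ranges did not overlap (adjusted p = 0.000775 in the permutation test). The exonic, exon-junction, intronic and intergenic shares are parts of the same total, so their differences are not separate. Exonic reads, without those across exon junctions, made up 38.7 to 40.9% with nintedanib, median 40.2%, and 40.4 to 44% with sorafenib, median 42.5% (difference -2.49 percentage points, adjusted p = 0.000775 in the permutation test). Intronic reads made up 34.3 to 36.4% with nintedanib, median 34.8%, and 31.4 to 34.9% with sorafenib, median 33.2% (difference 2.24 percentage points, adjusted p = 0.000775 in the permutation test). Mitochondrial reads were 1.37 to 1.64%, median 1.5%, with nintedanib and 1.54 to 1.86%, median 1.7%, with sorafenib (difference -0.209 percentage points, adjusted p = 0.00155 in the permutation test).

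These 4 shares were picked from the 13 that differed. On 3 of them the means of both compounds lay between the vehicle mean and the sham mean, with nintedanib nearer to vehicle. The protein-coding, exon-junction, intergenic, mitochondrial rRNA and sense-strand shares also followed this order. The ribozyme, rRNA, misc_RNA and non-uniquely mapped shares did not. Ribozyme reads averaged 0.274% with nintedanib, 0.302% with sorafenib, 0.303% with vehicle and 0.294% in sham slices. Exonic reads averaged 40 ± 0.789% with nintedanib, 42.5 ± 1.17% with sorafenib, 39.6 ± 0.947% with vehicle and 47.3 ± 2.26% in sham slices (SD, n = 10, 10, 10 and 9). Intronic reads averaged 35.2 ± 0.817% with nintedanib, 32.9 ± 1.14% with sorafenib, 35.6 ± 0.895% with vehicle and 27.4 ± 2.13% in sham slices. Mitochondrial reads averaged 1.51 ± 0.0959% with nintedanib, 1.72 ± 0.105% with sorafenib, 1.42 ± 0.0644% with vehicle and 2.25 ± 0.142% in sham slices. The lincRNA share did not follow this order, at 0.605 ± 0.0357% with nintedanib, 0.513 ± 0.025% with sorafenib, 0.62 ± 0.049% with vehicle and 1.12 ± 0.101% in sham slices. These shares move with the compounds as the gene calls do, and their part in those calls was not tested. A fit with the first principal component of the quality measures as a covariate called 352 genes, 213 higher and 139 lower with nintedanib, but that component differed little between the groups (-0.651 ± 0.284 with nintedanib and -0.528 ± 0.532 with sorafenib, SD, n = 10 each), so the fit does not remove the differences in these shares.

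**Figure D5:**
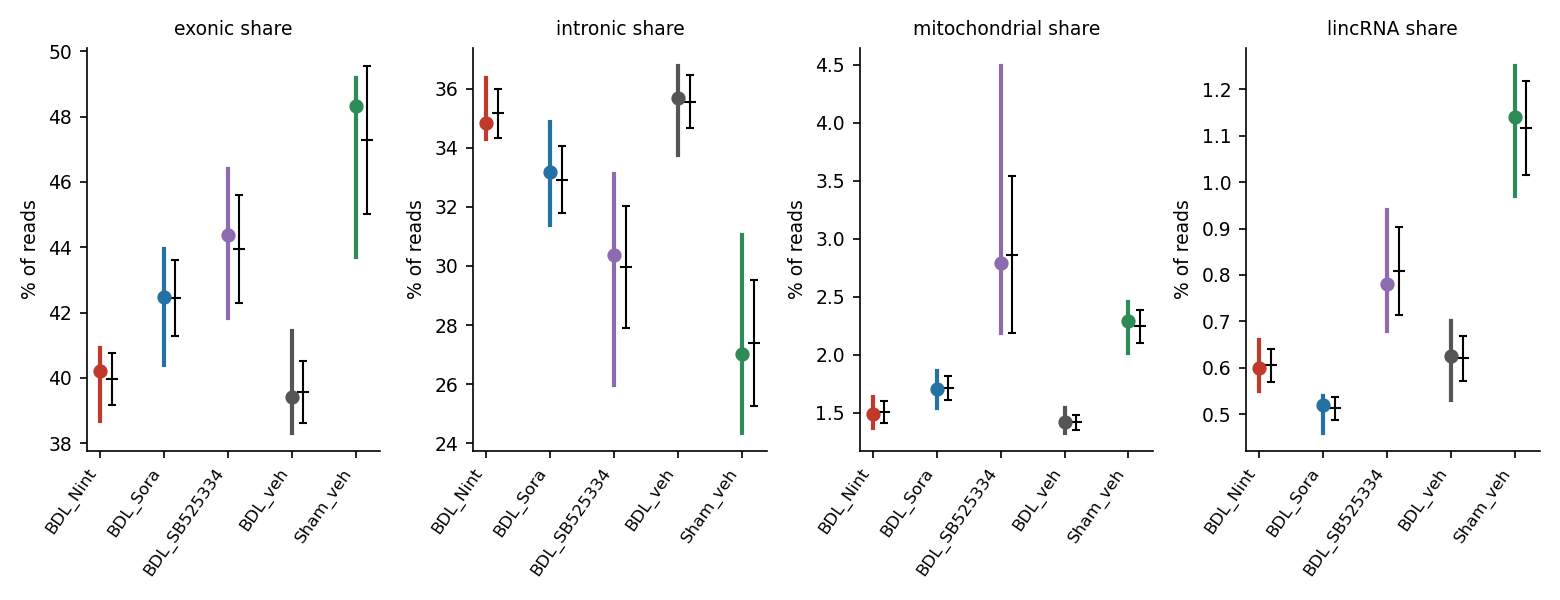
Coloured lines run from the lowest to the highest library of each group and dots mark the medians, with the mean and SD in black beside them, as percent of reads. The lincRNA ranges of nintedanib (0.55 to 0.66%) and sorafenib (0.46 to 0.54%) do not overlap, and the exonic, intronic and mitochondrial ranges overlap in part.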

How the data were processed

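Total RNA of 48 rat liver slice libraries was sequenced. The authors deposited expected counts per gene, a table of log2 CPM for 14418 expressed protein-coding genes, and quality measures. The submitters' processing notes name RSEM, edgeR and Rnor_6.0; aligner, annotation and the strand setting of the counting were not given in the sources used here. Expected counts as deposited, of which 8.02% were not whole (tolerance 1e-06), were rounded to whole numbers. The deposited log2 CPM served only as an alternative.

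Groups came from the sample titles. Genes were kept by filterByExpr by group, libraries were scaled by TMM, and all 5 groups entered 1 fit in edgeR 4.0.16 (R 4.3.3), with its robust quasi-likelihood test and a threshold of 0.05 on the Benjamini-Hochberg adjusted p. CPM values use the TMM-scaled library sizes. Intervals are at 95%. Principal components used log2 CPM with a prior count of 2. The 31 library measures were 22 picked from the 172 in the quality table (shares of reads as percent, and insert size) and 9 computed from the counts (5 principal components, total counts, genes detected and 2 shares of counts). They were compared by two-sided permutation tests (SciPy 1.17.1), adjusted over these 31. The fit and the tests were tested on simulated data. With independent libraries and changed genes at 1 CPM or more, the fit recovered 32% of 1.25-fold, 80% of 1.5-fold and 98% of 2-fold changes. It made 7 false calls with 14565 genes tested. Many changes under 1.5-fold can therefore go uncalled. Apart from the changed genes, the simulation gave every group the same level and each gene 1 dispersion. In the data ligation changed 82.2% of genes, so these rates need not hold there.

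The groups compared, the lists and the rules were chosen with earlier results of these data known. The rule named the 2 largest increases and 2 largest decreases among called genes at 1 CPM or more, because 0 of 32883 identifiers matched the reference table of 47357 genes (assembly GRCr8). The lists of pathways, kinase targets and cell type markers drawn up by symbol were therefore not applied, and no sequences are shown. Alternatives covered scaling, filters, tools (DESeq2 1.42.0, limma 3.58.1), the libraries in the fit, plate position as read from the library names, quality measures, the replicate number and leaving out each library. Replicate numbers did not pair the libraries, and whether slices of 1 rat were given both compounds is not known.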

Additional observations from a re-analysis of the deposited data

Results flagged for a closer look

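Dixon's test of the highest and lowest library marked 8 of the 65 groups of values examined. Its limits are set for chance to mark about 1 in 20, but the 8 cannot be read against that rate. Of the abundant RNAs outside the coding table only ranks 1, 3, 6 and 9 were examined, picked with earlier results known. A group with a count in 1 library only, such as ENSRNOG00000022669 in sham slices, is always marked. The values below are the gap to the nearest library as a share of the group's range, for which 0.466 is the limit with 10 libraries and 0.493 with 9.

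Nintedanib replicate 9 was marked for both abundant RNAs outside the coding table. It was the lowest for the first (3313 CPM, next 19010 CPM, gap 0.834) and the highest for the third (31440 CPM, next 15760 CPM, gap 0.87). Nintedanib replicate 3 had the largest total count of its group, 20392041 (gap 0.507), and the lowest share of intergenic reads, 15.4% (next 16.1%, gap 0.55). Sorafenib replicate 6 had the largest total count of its group, 29596987 (gap 0.571). Nintedanib replicate 5 had the highest share of reads that did not map uniquely, 8.76% (next 8.38%, gap 0.679).

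Named genes were marked as well. ENSRNOG00000006144 was highest in nintedanib replicate 7, at 3.08 CPM (next 1.54 CPM, gap 0.544). ENSRNOG00000022669 was highest in sham replicate 4, at 0.0681 CPM, the only sham library with a count, which was 1 count (gap 1).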

How the results depend on the processing

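All 343 genes kept their direction in every alternative that included them, while their number moved. Against 203 higher and 140 lower genes, the 2 groups alone gave 944 and 661, DESeq2 377 and 221, limma-voom with sample weights 1954 and 1775, limma on the deposited log2 CPM 88 and 85, the number in the library names, read as a plate column, 101 and 60, and the threshold of 1.5-fold 0 and 2. The letter in those names, read as a plate row, gave 217 lower genes. The deposited log2 table held 325 of the 343 genes. Total counts in place of TMM factors gave 301 higher and 83 lower genes, so 78.4% of calls were increases against 59.2%, and moved the share of lower genes that ligation had lowered to 28.9%, beside 27.3% of all genes, and the count raised by sorafenib against vehicle to 1598. Leaving out each library gave 100 to 326 higher and 66 to 241 lower genes. The cause of these shifts was not tested.

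The differences in exonic share ranged from -2.72 to -2.33 percentage points when each library was left out, and in lincRNA share from 0.0859 to 0.0981, with the exact permutation test. The replicate numbers gave a replicate block fit of 187 higher and 123 lower genes. Same-numbered libraries had correlations of -0.19 to 0.36, and 0 nintedanib libraries were closest to their own number. In every group the replicate numbers follow the order of the letter and number in the library names, so they are not read as a pairing. Neither the check nor the block fit can show whether libraries with other numbers share a rat. ENSRNOG00000006144 lost its call with the replicate block (edgeR adjusted p = 0.0811), no filter on low counts (0.0674), plate column (0.0629) and plate row (0.156). Depth limits genes under 1 CPM, where the interval half-width was 0.62 on the log2 scale at the median.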
